A study of Mus musculus with 2 samples.

Results

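Interferon-responding endothelial cells are cells of the blood vessel lining in which the genes switched on by interferon are active together. Here they are 3232 barcodes of freshly isolated mouse tibialis anterior (TA) muscle, out of 30891 deposited barcodes, each barcode standing for about 1 cell. A barcode was taken when it had at least 500 detected genes, at least 1000 unique molecular identifiers (UMIs, the counted RNA molecules) and at most 10% mitochondrial UMIs. It also needed at least 1 UMI of Pecam1 or Cdh5, the endothelial adhesion genes, and none of Ptprc, the leukocyte gene CD45, or Pdgfra, the gene of mesenchymal progenitors. The interferon part of the rule asked for at least 4 UMIs in all of Rsad2, Isg15, Ifit1, Iigp1 and Tgtp2, with at least 2 of these genes detected. At most 1 UMI was allowed over the arterial genes Bmx, Cytl1 and Gja5 and the venous genes Selp, Sele and Ackr1. The rule thus used measured RNA levels, and the values of those genes below describe the choice and test nothing.

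The study has 1 library labelled KO and 1 library labelled WT, each from 10 TA muscles pooled from 5 male mice of the strain. The labels give the genotype only as KO or WT, with no gene, allele, promoter, age or treatment, and call the muscle ND, an abbreviation they do not spell out. The series title names IGF-I that mesenchymal progenitors release and respond to themselves. The labels name the cells as such progenitors (FAPs), but the digested muscle was sorted for viable cells alone, and endothelial barcodes were the larger part of the filtered KO library. Igf1, the growth factor gene of the title, was at 384 CPM (UMIs of a gene over all UMIs of the cells summed, scaled to a common total) in Pdgfra-positive mesenchymal barcodes of the KO library and 375 CPM in those of the WT library. In the interferon-responding barcodes it was at 5.67 CPM in KO and 6.42 CPM in WT. The 3' tags counted here may lie outside any deleted part of a gene and then check nothing about the genotype.

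The KO library held 19531 barcodes with 101570863 UMIs and the WT library 11360 barcodes with 38014703 UMIs. The labels state a target of 20000 cells and about 15000 retained per library. The filters on genes, UMIs and mitochondrial share kept 17651 and 9732 of them. Endothelial-gated barcodes, those with Pecam1 or Cdh5 and without Ptprc and Pdgfra, numbered 10046 in KO and 3677 in WT, or 56.9% and 37.8% of the barcodes kept. The 2 libraries shared 61 barcode sequences in all and 2 among the interferon-responding ones. With 1 library a genotype there is no replicate: nothing was tested between KO and WT, and every interval below is a 95% interval for counting error alone.

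Interferons are secreted proteins that tell cells of infection or inflammation. Type I interferons act through the receptor of Ifnar1 and Ifnar2 and the kinases Jak1 and Tyk2, and its signal reaches the nucleus with Stat2 and Irf9. Interferon-gamma acts through Ifngr1 and Ifngr2 with Jak1 and Jak2. Their target genes overlap widely: Rsad2, Isg15 and Ifit1 are best known as type I targets, while Iigp1 and Tgtp2, which encode immunity-related GTPases of the mouse, are best known as interferon-gamma targets. Endothelial cells that sense interferon display more MHC class I, make chemokines such as Cxcl9 and Cxcl10 and carry the checkpoint ligand Cd274.

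The promoters of the rule genes are shown because they carry the sequence through which these genes are known to answer interferon. The interferon-stimulated response element, bound by interferon regulatory factors, was searched as its core, GAAA repeated after any 2 bases (GAAA-NN-GAAA), on both strands of RefSeq promoters of build GRCm38.p6, from 250 bases before to 50 bases after the annotated start. Matches are in capitals, and each sequence runs 5′ to 3′ along the gene's own strand. Entries matched 4 of the 5 genes, all but Iigp1.
Rsad2 (chr12:26456403-26456702, minus strand): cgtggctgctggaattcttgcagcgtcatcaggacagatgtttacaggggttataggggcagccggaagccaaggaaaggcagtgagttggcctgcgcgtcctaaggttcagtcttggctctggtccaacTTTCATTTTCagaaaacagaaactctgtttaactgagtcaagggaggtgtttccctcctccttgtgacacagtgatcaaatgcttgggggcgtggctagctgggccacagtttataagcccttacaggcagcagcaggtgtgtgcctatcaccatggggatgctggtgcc
Isg15 (chr4:156200769-156201068, minus strand): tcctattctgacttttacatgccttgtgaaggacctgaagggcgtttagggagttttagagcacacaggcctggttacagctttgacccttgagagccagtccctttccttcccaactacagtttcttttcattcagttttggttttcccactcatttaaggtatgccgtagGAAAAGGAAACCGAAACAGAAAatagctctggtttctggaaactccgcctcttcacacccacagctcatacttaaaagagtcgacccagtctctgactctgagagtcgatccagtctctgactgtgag
Ifit1 (chr19:34640639-34640938, plus strand): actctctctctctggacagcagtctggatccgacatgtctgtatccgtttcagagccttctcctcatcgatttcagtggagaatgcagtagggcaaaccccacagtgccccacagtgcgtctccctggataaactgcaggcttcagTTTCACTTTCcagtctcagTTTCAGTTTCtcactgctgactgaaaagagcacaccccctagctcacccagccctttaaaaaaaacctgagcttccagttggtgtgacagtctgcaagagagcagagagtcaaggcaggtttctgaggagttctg
Tgtp2 (chr11:49064163-49064462, minus strand): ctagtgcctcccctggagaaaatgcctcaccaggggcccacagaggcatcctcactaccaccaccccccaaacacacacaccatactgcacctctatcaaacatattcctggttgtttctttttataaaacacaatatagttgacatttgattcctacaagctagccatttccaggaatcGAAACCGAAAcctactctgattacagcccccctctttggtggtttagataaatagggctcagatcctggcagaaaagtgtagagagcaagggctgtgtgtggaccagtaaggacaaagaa

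Each of the 4 windows held the core. Rsad2, the antiviral enzyme viperin, had 1 match on the reverse strand, beginning 120 bases before the start. Isg15, a ubiquitin-like protein that is joined to other proteins, had 3 overlapping matches, the first beginning 78 bases before the start. Ifit1, which binds foreign RNA ends, had 2 matches on the reverse strand, beginning 104 and 85 bases before the start. Tgtp2 had 1 match, beginning 70 bases before the start, and its only match to TTCNNNGAA, the gamma-activated site, began 81 bases before the start and shared no base with the core. Of all 27025 genes searched, 3.99% had a match to this core in a promoter window and 9.55% a TTCNNNGAA match. A match describes the letters of the window and shows no binding.

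The interferon-responding barcodes numbered 2111 in the KO library and 1121 in the WT library. Their share of the endothelial-gated barcodes was 21.0% in KO, with a Clopper-Pearson interval of 20.2 to 21.8%, and 30.5% in WT, with one of 29 to 32%. The KO library was the deeper, with a median of 5397 UMIs and 2259 genes in its interferon-responding barcodes against 2718 UMIs and 1497 genes in those of WT, and a rule that counts UMIs takes more barcodes of a deeper library. With every barcode thinned to 2000 UMIs the share was 14.7% in KO (1148 of 7819; 13.9 to 15.5%) and 26.9% in WT (670 of 2494; 25.1 to 28.7%). That step left out 2227 and 1183 shallower barcodes. The share was lower in KO with and without thinning. Of all barcodes kept, endothelial or not, the interferon-responding ones were 11.96% in KO and 11.52% in WT, since the endothelial part of the KO library was larger.

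The 5 genes of the rule contributed unevenly. Iigp1 gave 59.7% of their UMIs in the KO barcodes chosen and 57.7% in the WT ones, and it was present in 87.6% and 92.7% of these barcodes. Isg15 was present in 79.5% of the chosen barcodes in KO and 77.6% in WT. Tgtp2 was present in 52.8% and 52.9%, Rsad2 in 45.9% and 48.4%, and Ifit1 in 25.2% and 32.0%. For comparison with cells that should express little, barcodes gated on at least 2 UMIs of myogenic markers had Isg15 in 6.30% of KO barcodes (median 8072.5 UMIs) and 5.60% of WT barcodes (median 3634 UMIs). Both Isg15 shares were the lowest among the gates outside the endothelium. In the remaining ones Isg15 ran from 15.81% (mesenchymal) to 23.34% (leukocyte) in KO. In WT it ran from 11.21% (glial) to 20.04% (leukocyte). Those shares lay nearer to the 21.39% in KO and 24.88% in WT of the other endothelial barcodes. Rsad2 was in 1.26% and 1.07% of the KO and WT myogenic barcodes. Over the other gates it ran from 0.6% (glial) to 5.19% (leukocyte) in KO and from 1.15% to 5.39% in WT.

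In level, Iigp1 stood at 1654 CPM in the chosen KO barcodes and 346 CPM in the other endothelial barcodes of that library, and at 2400.1 and 749 CPM in WT. Isg15 was at 592 and 113 CPM in KO and at 858 and 176 CPM in WT. Rsad2 was at 206 and 29.8 CPM in KO and at 338 and 64.2 CPM in WT. Each gene was higher in the chosen barcodes, as the rule demands, and the other endothelial barcodes were far from empty of these transcripts. Ifit1 was at 115 and 15.9 CPM in KO and at 228 and 48.6 CPM in WT, and Tgtp2 at 202 and 33.1 CPM in KO and at 338 and 80.0 CPM in WT. The last 600 bases of the longest Tgtp2 transcript are found whole in Tgtp1, so the counts of this pair are uncertain. The last 600 bases of the other 4 rule genes shared no stretch of 91 bases with another gene.

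**Figure D1:**
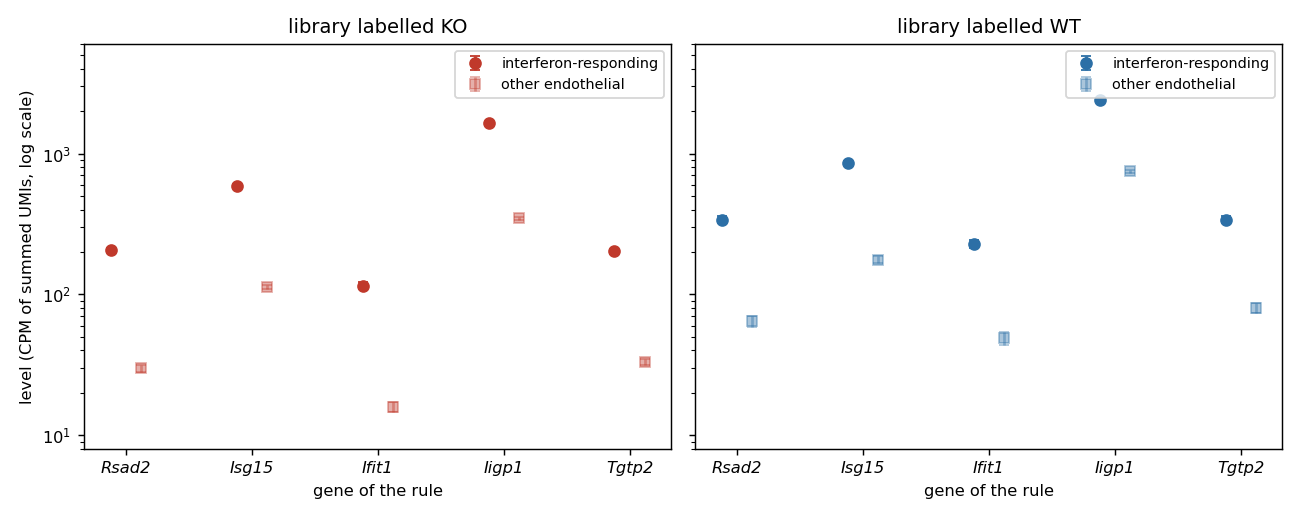
Level of each rule gene (CPM, log axis) in interferon-responding barcodes (circles) and other endothelial-gated barcodes (squares) of the KO library (left) and the WT library (right), with exact Poisson intervals. Iigp1 is the most abundant of the 5 genes in every group, and all 5 are higher in the WT library in both kinds of barcode.

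Most of the chosen barcodes carried both kinds of target. In KO 1859 and in WT 996 of them had at least 1 UMI of Rsad2, Isg15 or Ifit1 together with at least 1 of Iigp1 or Tgtp2, which is 88.1% and 88.8%. Only 92 KO and 31 WT barcodes lacked both Iigp1 and Tgtp2, and 160 and 94 lacked Rsad2, Isg15 and Ifit1. Exactly 2 of the 5 genes were detected in 871 KO and 415 WT barcodes, and all 5 in 171 and 117.

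Barcodes without Iigp1 and Tgtp2 had less of the guanylate binding protein (GBP) and GTPase genes, other than the rule genes, which belong to the same protein families. These genes include Tgtp1, whose 3' end is shared with Tgtp2, so they are not wholly apart from the rule. In the chosen barcodes Tgtp1 gave 900 of their 15541 UMIs in KO and 525 of 7300 in WT. The summed level of these genes was 777 CPM in such KO barcodes and 1217 CPM in KO barcodes with both kinds of target, and 1018 and 2097 CPM in WT. Barcodes without Rsad2, Isg15 and Ifit1 had the lowest summed level of the other antiviral genes, 5614.5 CPM in KO and 6057 CPM in WT, against 6972 and 8033 CPM with both. Each subset was also below the barcodes with both in the other list. The antiviral genes were at 6084 CPM in KO and 7126 CPM in WT without Iigp1 and Tgtp2. GBPs and GTPases were at 1088 and 1677 CPM without Rsad2, Isg15 and Ifit1. The part of the number of rule gene UMIs in these levels was not tested. These subsets are small, and 1 or few cells can set a level: Hba-a1, Hbb-bs and Alas2, which mark red cells, summed to 15654 CPM in the KO barcodes without Iigp1 and Tgtp2.

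The rule cut through a range with no gap. The 5 genes summed to between 4 and 121 UMIs in the chosen KO barcodes (median 12) and to between 4 and 109 in those of WT (median 10). Exactly 4 UMIs, the smallest number allowed, were found in 199 KO barcodes (9.43%) and 115 WT barcodes (10.3%). Just outside, 471 KO and 202 WT endothelial barcodes within the segment limit had 3 UMIs, whatever the number of rule genes detected. Some of these also missed the demand on genes detected, so the levels just outside mix both parts of the interferon rule. The GBPs and GTPases were at 681 CPM just inside and 586 CPM just outside in KO, and at 1232 and 1262 CPM in WT, where the value just inside was not the higher. The antiviral effectors were at 5589 and 4780 CPM in KO and at 6321.5 and 5440.1 CPM in WT. MHC class I genes were at 5061 and 4554 CPM in KO and at 7099 and 6201 CPM in WT, so both of these lists were somewhat higher just inside in each library.

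The same range was seen in genes that the rule did not use, in endothelial barcodes with at least 3 Pecam1 and Cdh5 UMIs and at most 1 segment UMI. The GBP and GTPase list again holds Tgtp1, which shares its 3' end with the rule gene Tgtp2. GBPs and GTPases were at 335 CPM in KO barcodes with 0 UMIs of the rule genes, 694 CPM with 4, 1020 CPM with 10 to 19 and 2231 CPM with 50 or more. In WT the corresponding levels were 560, 1179, 2132 and 3493 CPM, the last from 14 barcodes. Nucleic acid sensor genes were less steep, at 484 and 1598 CPM at the ends of the range in KO and 758 and 2673 CPM in WT, and MHC class I genes, already at 4077 and 5258 CPM with 0 UMIs in KO and WT, were flatter still. The antiviral effectors were at 4023 CPM with 0 UMIs and 9620 CPM with 50 or more in KO, and at 4276 and 9319 CPM in WT. Capillary genes lay between 20457 and 23610 CPM over the whole range in KO and between 12191 and 18568 CPM in WT, where the 14 barcodes at the top were the lowest. Deeper barcodes reach higher sums: the median was 3475 UMIs at 0 and 6968 UMIs at 50 or more in KO, and 2024 and 4626.5 UMIs in WT, and the part of depth in this range was not tested.

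**Figure D2:**
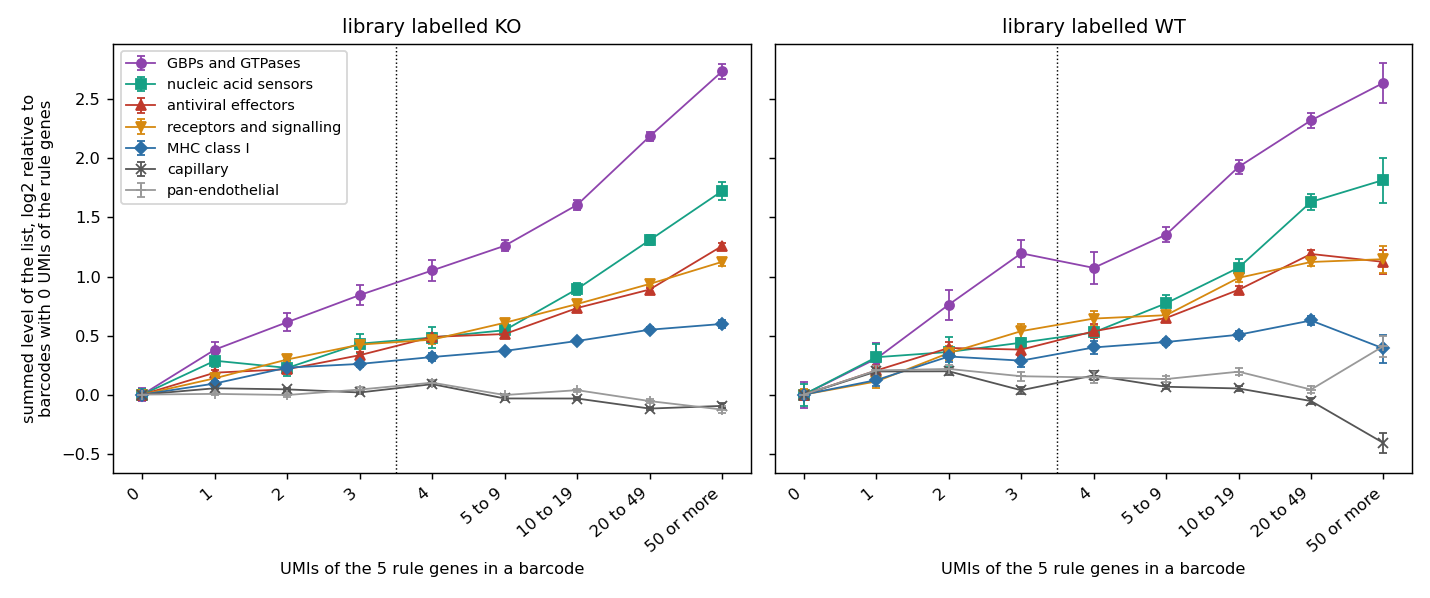
Summed level of 7 gene lists, log2 relative to barcodes with 0 UMIs of the 5 rule genes, against the UMIs of the rule genes in a barcode, in the KO library (left) and the WT library (right), with exact Poisson intervals and the cutoff of 4 UMIs as a dotted line. GBPs and GTPases climb to 2231 CPM in KO and 3493 CPM in WT with no step at the cutoff, while the pan-endothelial list runs near 0.

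All genes were then compared between interferon-responding and other endothelial barcodes within each library, as log2 ratios of CPM with 1 CPM added, for genes at 20 CPM or more in either group. Within the KO library 42 of 6925 genes (0.606%) were higher past 2-fold in the interferon-responding barcodes and 409 (5.91%) lower, and within the WT library 47 of 7125 (0.66%) were higher and 375 (5.26%) lower. At 1.5-fold, the size used for the gene lists, 3.09% of genes were higher and 9.55% lower in KO, and 4.31% and 10.2% in WT. The cells were chosen by genes of the same response, so these ratios describe what the rule gathered. The median ratio over all genes was -0.08 in KO and -0.05 in WT.

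Antiviral effectors, the longest of the interferon lists, were mostly higher. Of 30 compared in KO 21 were at least 1.5-fold higher and 0 lower, with a median ratio of 0.86, and of 34 in WT 22 were higher and 0 lower, with a median of 0.69. Ifit2, of the same family as Ifit1, was at 66.3 and 15.1 CPM in interferon-responding and other KO barcodes and at 135 and 27.7 CPM in those of WT, ratios of 2.06 (interval of the ratio without the added CPM 1.98 to 2.29) and 2.25. Ifit3, which stabilises Ifit1 in complexes, had ratios of 2.13 and 1.97. Oasl1, of the oligoadenylate synthetase family, had 2.53 and 1.92, and Mx2, a dynamin-like antiviral GTPase, 1.88 and 1.71.

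Other effectors lay on the same side, some by little. Cmpk2, a mitochondrial nucleotide kinase that lies beside Rsad2 in the genome, had ratios of 1.88 in KO and 1.41 in WT. Eif2ak2, the RNA-activated kinase PKR, had 1.24 and 0.96. Bst2, the surface protein tetherin that holds budding viruses, had 0.96 and 1.02, and Rtp4 had 1.30 and 0.94. Slfn5 was the most abundant effector, at 1724.5 and 926 CPM in KO and at 1398 and 851 CPM in WT, with ratios of 0.90 and 0.72. Ifitm2, a membrane protein that blocks virus entry, was abundant and nearly even, at 769 and 742 CPM in KO and 695 and 657 CPM in WT. Mx1 was at 0.08 CPM in the KO barcodes and 0 in those of WT.

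GBPs and immunity-related GTPases, which attack the vacuoles of intracellular microbes, were nearly all higher. In KO 13 of 15 compared were at least 1.5-fold higher and 0 lower (median 1.02), and in WT 14 of 16 and 0 (median 0.73). Tgtp1 was at 69.0 and 20.1 CPM in interferon-responding and other KO barcodes and at 146 and 56.7 CPM in WT, with the reservation given for its pair Tgtp2. Gbp7 was at 158 and 70.2 CPM in KO and at 241.5 and 132 CPM in WT, and Gbp4 at 75.1 and 34.6 CPM in KO and at 151 and 78.3 CPM in WT. Irgm1, which regulates the other GTPases, had ratios of 0.86 and 0.80. Gbp5, known for its part in inflammasome activation, was the least apart in KO, with 0.36, and had 0.46 in WT. The 3' end of Gvin1 is wholly found in a predicted gene, and most of that of Gbp6 likewise, so their counts are uncertain.

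Genes that attach and remove Isg15 were higher too. In KO 3 of 4 compared and in WT 5 of 5 were at least 1.5-fold higher. Herc6, the ligase that joins Isg15 to targets in the mouse, was at 247 and 113 CPM in KO and at 338 and 166.5 CPM in WT. Usp18, which removes Isg15 and also blocks the type I receptor, had ratios of 1.61 in KO and 1.67 in WT. Trim25 had 0.94 and 0.80. The activating enzyme Uba7, under the floor in KO, had 0.72 in WT.

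Sensors of foreign nucleic acid were higher in part, with 6 of 11 at least 1.5-fold higher in KO and 7 of 12 in WT, and 0 lower in either. Ifih1, the RNA sensor MDA5, was at 173 and 75.6 CPM in KO and at 248 and 115 CPM in WT. Rigi, the RNA sensor RIG-I, had ratios of 0.68 and 0.52. The DNA sensor Cgas had 0.31 and 0.07, and its effector Sting1 0.60 and 0.30. Mndal and Ifi203, of the p200 family, had 0.77 and 0.79 in KO and 0.85 and 0.71 in WT.

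Within the signalling chain 12 of 23 genes were at least 1.5-fold higher and 0 lower in KO, and 9 of 23 and 0 in WT. Irf7, the factor that amplifies type I interferon, had ratios of 1.44 in KO and 1.52 in WT, and Irf1, a main factor downstream of interferon-gamma, was at 1489 and 820 CPM in KO and at 1491 and 902 CPM in WT. Stat2 had 0.73 and 0.75, and Irf9 0.80 and 0.66. The feedback inhibitor Socs1 was at 76.9 and 38.6 CPM in KO and at 71.1 and 32.1 CPM in WT. The receptor genes were close to even: Ifnar1 had 0.02 and 0.08, Ifnar2 -0.04 and 0.06, and Ifngr1 -0.21 and -0.21.

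MHC class I genes, which display peptides to T cells, were higher by less. Of 20 compared in KO 6 were at least 1.5-fold higher (median 0.47), and of 23 in WT 5 (median 0.46), with 0 lower in either and none 2-fold apart. B2m, the light chain, was at 1770.0 and 1234 CPM in KO and at 2555 and 1809 CPM in WT. H2-Q4 had ratios of 0.84 and 0.58, the peptide transporter Tap1 0.72 and 0.78, and the immunoproteasome subunit Psmb8 0.80 and 0.66. MHC class II genes, which endothelial cells can make under interferon-gamma, were scarce in these barcodes, and only 1 of 9 in KO and 2 of 9 in WT reached the floor for comparison. All 9 had lower values than in the other barcodes, in both libraries, and so did the summed leukocyte markers, at 23.3 and 145 CPM in KO and at 23.7 and 63.1 CPM in WT; the part of leukocytes was not tested. Cd74, the invariant chain, was at 7.05 and 24.9 CPM in KO and at 10.6 and 62.7 CPM in WT, and Ciita, the master regulator of these genes, at 0 UMIs in KO and 0.56 CPM in WT.

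The chemokine and adhesion genes did not differ as a block, with 4 of 17 at least 1.5-fold higher and 3 lower in KO and 4 of 15 and 2 in WT. Cd274, the ligand PD-L1 that restrains T cells, was at 87.2 and 32.8 CPM in interferon-responding and other KO barcodes and at 155 and 50.1 CPM in WT. Cxcl9, a T cell chemokine induced by interferon-gamma, was at 35.7 and 16.6 CPM in KO and at 99.3 and 31.4 CPM in WT. Cxcl10, its close relative, was at 44.1 and 25.4 CPM in KO but at 56.9 and 87.4 CPM in WT. Vcam1, a leukocyte adhesion gene and a venous marker, was at 13.4 and 88.7 CPM in KO and at 23.7 and 163 CPM in WT, where the limit on segment genes bears directly on venous cells. Tnfsf10, the death ligand TRAIL, had ratios of 0.61 and 0.62.

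Outside the listed interferon genes, the rule for the most different genes also named some with other known roles. Tnfsf9, a T cell costimulatory ligand, was at 184 and 94.97 CPM in KO and at 143 and 77.0 CPM in WT. Pfkfb3, a driver of glycolysis in endothelial cells, was at 201 and 108 CPM in KO and at 286 and 158 CPM in WT. Gja1, the gap junction gene connexin 43, was at 502 and 282 CPM in KO and at 667 and 343 CPM in WT. Rnf213, a giant ubiquitin ligase induced by interferon, had ratios of 1.03 and 0.92, and Btnl9, a capillary marker, 0.96 and 0.95. The remaining higher genes named by the rule were Parp12, Ier5l, Trim69, Endou, Gvin2 and Trim41, with ratios between 0.83 and 1.15.

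**Figure D3:**
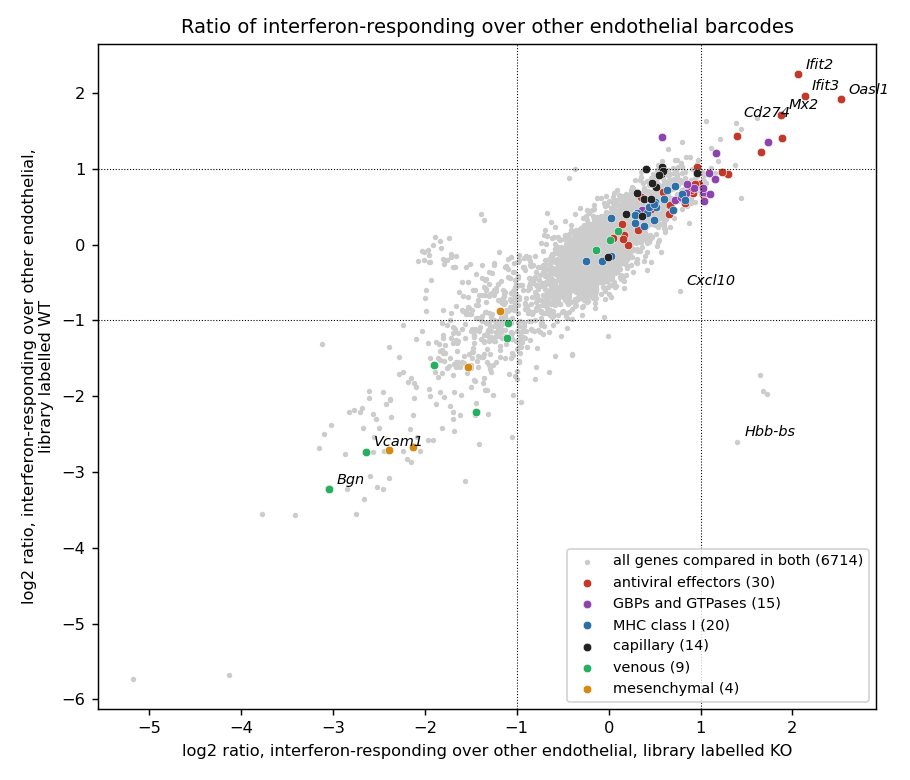
Log2 ratio of interferon-responding over other endothelial barcodes in the KO library (x axis) and the WT library (y axis) for the 6714 genes compared in both, with 6 gene lists in colour and 2-fold marked by dotted lines. Antiviral genes and GBPs lie to the upper right, most venous and mesenchymal markers to the lower left, and the haemoglobin genes are 4 of the few points high in KO and low in WT.

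The genes far lower in the interferon-responding barcodes were mostly genes known from other cells. Bgn, Mgp, Igfbp6, Serpinf1, Col1a2, Col1a1, Fmod, Ogn, Postn, Apod and Itgbl1, known from fibroblasts, tendon or mural cells, were among the 15 lowest with at least 50 CPM in the other barcodes of both libraries, together with Vcam1, Mctp1, Pcdh7 and Fgl2. The segment genes of the rule were left out of that ranking. Ccl21a, a lymphatic chemokine under that level in KO, was lower still, at 0.15 and 40.6 CPM in KO and at 0.84 and 96.2 CPM in WT. The ratios of the 15 ran from -2.24 to -3.04 in KO and from -2.19 to -3.56 in WT. Bgn was at 12.3 and 108 CPM in KO and at 19.8 and 194 CPM in WT. For several of them a single barcode held a large part of the few UMIs left in the chosen cells, up to 35.7% in KO (Fmod) and 51.2% in WT (Itgbl1).

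The other endothelial barcodes thus held more RNA of most other cell types listed, and a single Pecam1 or Cdh5 UMI admits a barcode to them. The 5 mesenchymal markers listed summed to 326 CPM in the interferon-responding barcodes and 1239 CPM in the others in KO, and to 393 and 2066 CPM in WT. The 5 myofibre markers summed to 559 and 2178 CPM in KO and to 990 and 1115 CPM in WT. Leukocyte markers were at 23.3 and 145 CPM in KO and at 23.7 and 63.1 CPM in WT, with Cd3e at 0 in the chosen barcodes of both libraries and Nkg7 at 0 in those of WT. Of the 9 leukocyte markers 8 were lower in the chosen barcodes in KO and 6 in WT. In WT 41 of the 85 leukocyte marker UMIs in chosen barcodes lay in the 31 without Iigp1 and Tgtp2. Mural markers were less apart, at 2051 and 2826 CPM in KO and at 2147 and 1942 CPM in WT, most of it Rgs5, at 1560 and 1559.5 CPM in KO and at 1511 and 1010 CPM in WT. Of the 7 mural markers 6 were lower in the interferon-responding barcodes in each library. Hba-a1, Hbb-bs and Alas2 together were at 2426 and 865 CPM in KO and at 198 and 926 CPM in WT. The part of these cells in the ratios above was not tested one gene at a time.

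A matched comparison, added after these values were seen, took barcodes with at least 3 Pecam1 and Cdh5 UMIs on both sides and, on the other side, at most 1 segment UMI and 0 UMIs of the rule genes. It set 2022 KO and 989 WT interferon-responding barcodes against 2125 and 507 others. This sets barcodes with 0 UMIs of the rule genes against barcodes with at least 4. A wider gap in genes of the same response therefore describes that choice and tests nothing. With the Pecam1 and Cdh5 limit alone, the interferon list medians were lower than in the main comparison, as given below. In the matched comparison GBPs and GTPases had a median ratio of 1.95 in KO and 2.07 in WT. Of these genes 15 of 15 and 15 of 16 were at least 1.5-fold higher and 0 lower. Of all genes 4.97% were higher and 7.04% lower at that size in KO and 8.81% and 17.6% in WT, and past 2-fold 1.72% and 2.88% in KO and 2.92% and 6.55% in WT. Antiviral effectors had medians of 0.95 and 1.18 and MHC class I genes 0.68 and 0.72. Cxcl10 was at 3.02 in KO and 3.97 in WT, Ifit3 at 3.17 and 3.49, Mx2 at 3.16 and 2.89, and Icam1, which the main comparison left even, at 1.14 and 1.54. Barcodes with 0 UMIs of the rule genes are also shallower, with medians of 3475 UMIs in KO and 2024 in WT against 5465 and 2855.

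Vessel genes stood differently in the 2 comparisons. Capillary genes were higher in the interferon-responding barcodes of the main comparison, with 3 of 14 at least 1.5-fold higher in KO and 11 of 15 in WT, but their medians in the matched one were -0.18 and -0.11. Fabp4, the fatty acid carrier of capillary endothelium, was at 7765 and 6039 CPM in KO and at 6372 and 4882 CPM in WT, and Gpihbp1, which anchors lipoprotein lipase, at 963.5 and 660.5 CPM in KO and at 796 and 421 CPM in WT. Of the 17 pan-endothelial genes 1 in KO and 2 in WT were at least 1.5-fold apart in the main comparison and 0 and 1 in the matched one. Venous genes not used by the rule were lower in the main comparison, 7 of 10 in KO and 6 of 9 in WT, but their matched medians were -0.10 and -0.09, with 2 of 9 higher and 2 lower in KO and 3 of 9 and 3 in WT. Arterial genes not used by the rule had medians of -0.27 in KO and -0.01 in WT in the main comparison and 0.67 and 0.12 in the matched one, with 6 of 9 and 2 of 10 at least 1.5-fold higher there. Dissociation stress and immediate early genes, which respond to tissue digestion, had a median of 0.37 in KO and 0.41 in WT, with 0 of 20 at least 1.5-fold higher in KO and 3 of 20 in WT. In the matched comparison the medians were 0.44 and 0.88, with 9 and 13 of 20 higher, and the part of these genes in the interferon ratios was not tested.

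Read against the promoters, the lists differed in how often the GAAA-NN-GAAA core occurred. It was in a window of 17 of the 35 antiviral effectors with an entry (48.6%), 9 of 14 sensors (64.3%) and 9 of 10 GBPs and GTPases. It was in 5 of 19 MHC class I genes (26.3%), 3 of 21 signalling genes (14.3%) and 0 of 4 genes of Isg15 conjugation. Among vessel genes it was in 0 of 9 capillary, 0 of 11 pan-endothelial and 0 of 8 venous genes, 1 of 7 arterial genes (14.3%) and 1 of 5 lymphatic genes, against 3.99% of all genes. Of the 25 genes named as highest, 19 had an entry and 6 held the core (31.6%). Irf7, Cmpk2, Herc6 and Cd274, all clearly higher in these cells, had none in their windows. Cxcl9 had no match either, while Cxcl10 had 1, beginning 213 bases before the start.

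The cutoff on the 5 genes was next applied to other cells, leaving the segment limit aside. Arterial barcodes were those with at least 2 UMIs of the 3 arterial genes and 0 of the venous ones, and venous barcodes the reverse. Among arterial barcodes 38.3% in KO (35.05 to 41.7%) and 44.9% in WT (40.5 to 49.5%) passed, among venous ones 42.9% (37.3 to 48.5%) and 53.2% (45.5 to 60.8%), and among the remaining endothelial ones 24.2% and 38.2%. Arterial and venous barcodes were deeper, and thinned to 2000 UMIs the shares of these 3 vessel gates came together. They stood at 15.7, 16.2 and 16.9% in KO and at 33.0, 34.7 and 33.6% in WT, with intervals that overlapped within each library. With at least 3 Pecam1 and Cdh5 UMIs, thinned shares were 16% arterial, 16.7% venous and 19.2% with at most 1 segment UMI in KO. In WT they were 33.25, 36.0 and 39%. The rule genes summed to 1019, 1614 and 1094 CPM in arterial, venous and remaining KO barcodes, and to 1754, 2626.5 and 2076.5 CPM in WT. In the unthinned data 504 KO and 344 WT endothelial barcodes met the interferon cutoff and were left out by the segment limit.

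Outside the endothelium few barcodes passed. After thinning, mural barcodes passed in 2.24% of cases in KO (1.56 to 3.12%) and 5.62% in WT (4.24 to 7.29%), mesenchymal ones in 0.932% and 2.19%, and leukocytes in 0.971% and 1.69%. Glial and myogenic barcodes were at or below 0.642% in both libraries. The endothelial shares lay far above these, at 16.8% in KO (15.9 to 17.6%) and 33.6% in WT (31.7 to 35.5%), and in every gate of vessel, mural and mesenchymal cells the thinned share was lower in KO. The share need not follow the level of interferon genes outside the rule. Antiviral and GTPase genes other than the rule genes summed to 6268 CPM in KO leukocytes and 5777 CPM in KO endothelial barcodes. In WT they were at 4751.5 and 7521 CPM. The mural, mesenchymal, glial and myogenic gates ran from 1656 to 2672 CPM in KO and from 1662 to 3502 CPM in WT. Iigp1 was in 6.81% of KO and 3.23% of WT leukocyte barcodes.

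**Figure D4:**
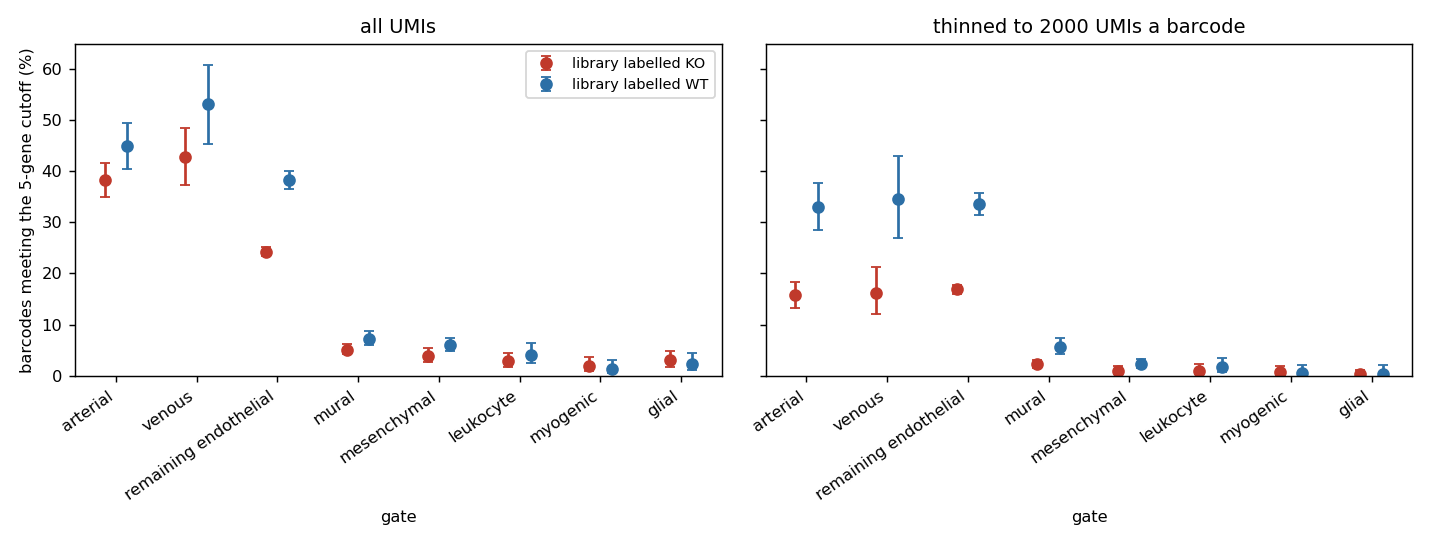
Share of barcodes (%) with at least 4 UMIs of at least 2 of the 5 rule genes in 3 endothelial and 5 other gates of the KO library (left of each pair) and the WT library, with Clopper-Pearson intervals, on all UMIs (left panel) and thinned to 2000 UMIs (right panel). Thinning brings the shares of the 3 endothelial gates close together in each library, with KO below WT and both above every other gate.

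Interferon genes themselves were barely detected. Ifng, the gene of interferon-gamma, had 20 UMIs in 13 barcodes of the KO library, all Ptprc-positive and with Cd3e or Nkg7, genes of T and natural killer cells. In the WT library it had 39 UMIs in 21 barcodes, with 37 of the UMIs in Ptprc-positive ones. Ifnb1, a type I interferon, had 2 UMIs in KO and 4 in WT, all in Ptprc-positive barcodes. The interferon-responding barcodes held 0 UMIs of Ifng and Ifnb1, which at 3 counts allows up to 0.230 CPM in KO and 0.837 CPM in WT, and 1 UMI of Ifna2, in KO.

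The last comparison sets the interferon-responding barcodes of the KO library against those of the WT library. Past 2-fold, 27 of 6665 genes (0.405%) were higher in KO and 112 (1.68%) lower, and at 1.5-fold the shares were 2.27% and 5.97%. GBPs and GTPases were for the most part lower in KO, and the other interferon lists in smaller part. Of 34 antiviral effectors 0 were at least 1.5-fold higher and 12 lower (median -0.41), of 16 GBPs and GTPases 0 and 12 (median -0.78), and of 23 MHC class I genes 0 and 10 (median -0.57), where the median of all genes was -0.02. Of 23 signalling genes 1 was higher and 1 lower. The KO library is deeper, so its barcodes can pass the cutoff at a lower CPM of the rule genes, and the part of depth in these ratios was not tested. With the barcodes called on counts thinned to 2000 UMIs in both libraries, a setting added after these values were seen, the medians were -0.31, -0.49 and -0.42.

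Dissociation stress genes differed between the libraries too, with 18 of 20 above 0 in the interferon-responding barcodes (median 0.28, 33719 CPM in KO and 26972 CPM in WT in sum) and 19 of 20 in the others (median 0.43). Their part in the KO and WT ratios was not tested. In the other endothelial barcodes, which come from the same 2 libraries, the medians were -0.57 for antiviral effectors, -0.98 for GBPs and GTPases and -0.53 for MHC class I. There 0 of 15 GBPs and GTPases were at least 1.5-fold higher and 13 lower, where 3.53% of all genes were higher and 6.18% lower, and past 2-fold 0.682% and 1.82%. Gbp5 was at 57.8 CPM in KO and 168.5 CPM in WT among interferon-responding barcodes, and at 44.8 and 122.5 CPM among the others. Gbp3 was at 46.0 and 105 CPM among the interferon-responding and at 23.7 and 61.8 CPM among the others, and Mndal at 223 and 500.4 CPM and at 130 and 277 CPM. H2-Q7, an MHC class I gene of the Q region, was at 34.0 CPM in KO and 120 CPM in WT, and at 27.6 and 91.3 CPM in the other barcodes.

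Some interferon genes stood even. Irf1 was at 1489 CPM in KO and 1491 CPM in WT, Oasl1 at 28.7 in both, and Stat2 at 229.5 and 226.5 CPM. The signalling chain as a whole had a median of 0.02, with Irf8 the one gene at least 1.5-fold higher and Usp18 the one lower. The largest differences included genes with little difference between the cell groups: Apobec3, an antiviral cytidine deaminase, had a KO over WT ratio of -1.89 in interferon-responding barcodes and -1.76 in the others, Nxpe4 -1.85 in both and Cdk8, a kinase of the Mediator complex, -1.21 and -1.32.

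The haemoglobin genes had the highest KO over WT ratios of genes at 100 CPM or more in a library, between 3.13 and 3.97 in the interferon-responding barcodes and between -0.30 and 0.21 in the others. The naming rule leaves them out, and the genes it named were of other kinds. Plaur, the urokinase receptor, was at 199 CPM in KO and 86.2 CPM in WT, and Lpl, lipoprotein lipase, at 1930 and 911 CPM. Tinagl1, a basement membrane protein, was at 794 and 373 CPM, and Cdkn1a, the cell cycle inhibitor p21, at 2504 and 1401 CPM. Ercc1, Nabp1, Gclc, Tnfrsf12a, Pde3a, Akap12, Pakap and Ctla2a completed the 12 named, with ratios of 0.73 to 1.12. All 12 were also higher in KO in the other endothelial barcodes, by 0.64 to 1.44. Of 14 capillary genes 4 were at least 1.5-fold higher and 0 lower (median 0.30).

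**Figure D5:**
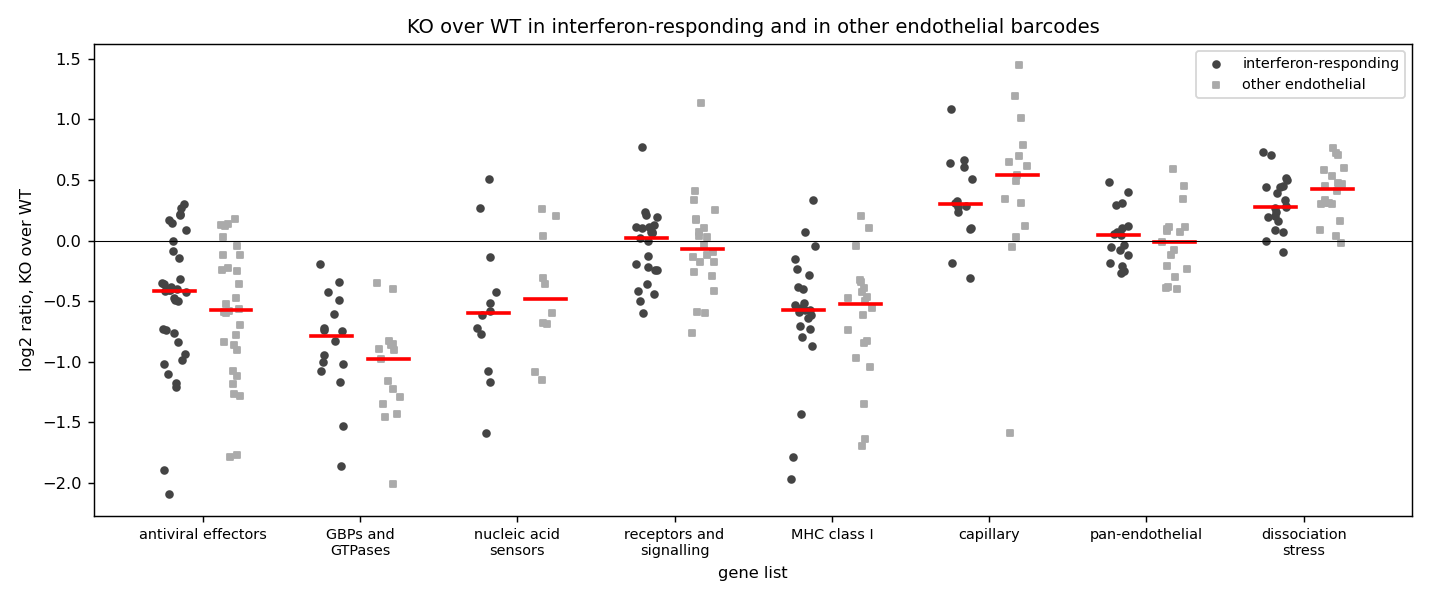
Log2 ratio of KO over WT for the genes of 8 lists, in interferon-responding barcodes (dark circles) and in other endothelial barcodes (grey squares), with the median of each as a red line. GBPs and GTPases lie below 0 throughout in both, with medians of -0.78 and -0.98, while pan-endothelial genes centre on 0.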

How the data were processed

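RNA of viable TA muscle cells was counted by droplet single-cell sequencing with a 3' kit, in 1 KO and 1 WT library. The deposited values are raw UMI counts per gene and barcode for 33696 genes. Cell Ranger made them, version 9.0.0 for KO and 8.0.0 for WT per the file headers, while the submitters' processing notes give 9.0.0 for both and the build mm10. Whether the version bears on the KO and WT difference was not tested.

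From these counts, barcodes were chosen by the rule given above and their UMIs summed per library. Levels are CPM with exact Poisson intervals and shares have Clopper-Pearson intervals, at the 95% level. Ratios are log2 with 1 CPM added, for genes at 20 CPM or more in the higher group and with 20 UMIs or more over both groups. Thinning drew 2000 UMIs a barcode without replacement. Scrublet, run through scanpy 1.11.5, called 3.82% of KO and 1.36% of WT barcodes doublets, which were kept in. Among interferon-responding barcodes it called 5.07% in KO and 2.41% in WT. The calculation used Python 3.11.15, numpy 2.4.6, scipy 1.17.1 and pandas 2.3.3 and was tested on simulated data. The genes named were the 25 highest and 15 lowest ratios ranked by the library nearer 0, at 50 CPM and 20 UMIs or more in the higher group of both libraries, the 12 highest and 12 lowest KO over WT ratios at 100 CPM or more in a library, and up to 6 genes of each list. The rule genes, segment genes, mitochondrial, ribosomal protein, haemoglobin and predicted genes and Malat1 were left out of these rankings. Some list genes outside that rule were named for their known role after their values were seen. The cells and gene lists were chosen with earlier results of these data known. Of 397 distinct list genes 391 were found.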

Additional observations from a re-analysis of the deposited data

Results flagged for a closer look

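The 4 adult haemoglobin genes stood on opposite sides in the 2 libraries, higher in interferon-responding than in other endothelial barcodes in KO and lower in WT. The difference between the libraries was not tested. Hbb-bs was at 1545 CPM in interferon-responding and 585 CPM in other barcodes in KO, a log2 ratio of 1.40, and at 97.6 and 598 CPM in WT, a ratio of -2.60. The ratios were 1.72 in KO and -1.97 in WT for Hbb-bt, 1.65 and -1.72 for Hba-a1, and 1.68 and -1.93 for Hba-a2. Single barcodes held a large part of this RNA. For Hbb-bs 1 barcode held 26.4% of the UMIs of the interferon-responding barcodes in KO and 91.4% in WT, and for Hbb-bt 30.9% and 92.0%. Red cells were lysed before the sort, per the labels. In the matched comparison all 4 were higher in the interferon-responding barcodes of both libraries, by 2.25 to 3.17 in KO and 0.15 to 0.97 in WT.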

How the results depend on the processing

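No paired analysis was possible because each genotype has 1 library. The share of interferon-responding barcodes was lower in KO than in WT under every alternative tried. It was 14.68% in KO and 26.86% in WT after thinning, 23.61 and 34.02% with at least 3 rule gene UMIs, 17.43 and 24.61% with at least 6, and 25.99 and 33.62% with at least 3 Pecam1 and Cdh5 UMIs. It was 26.36 and 33.75% with a stricter barcode filter and 26.03 and 39.84% with no segment limit. With Rsad2, Isg15 and Ifit1 as the only rule genes, at least 3 UMIs and at least 2 genes detected, it was 9.168 and 13.76%. With at most 1 UMI of other cells' genes it was 22.22 and 27.42%. Removing doublet calls left it at 20.89 and 30.32%.

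Counts of genes at least 2-fold apart depended on the settings. With 10 CPM added they were 22 higher and 253 lower in KO, 24 and 234 in WT, and 12 and 48 for KO over WT. With no floor on the level they were 68 and 1196 in KO, 103 and 1112 in WT, and 178 and 359 for KO over WT. With a floor of 100 CPM they were 12 and 88, 13 and 87, and 8 and 24. TMM scaling moved all ratios by 0.135 in KO and called 68 genes higher there and 75 in WT, with medians of 0.998 for antiviral effectors, 1.159 for GBPs and GTPases and 0.600 for MHC class I in KO.

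With at least 3 Pecam1 and Cdh5 UMIs, 27 genes were higher and 149 lower in KO and 200 lower in WT. The medians of antiviral effectors, GBPs and MHC class I were then 0.700, 0.822 and 0.316 in KO and 0.547, 0.496 and 0.277 in WT. With equal weight per barcode the GBP median in WT was 0.911. Against barcodes with at most 1 segment UMI 88 genes were higher in KO and 114 in WT. Against barcodes with 0 rule gene UMIs 134 were higher and 625 lower in KO, and 253 and 852 in WT. The matched comparison, added after seeing the data, gave 118 higher and 198 lower in KO and 216 higher in WT, with medians of 1.951 for GBPs and 0.676 for MHC class I in KO, and 1.185 for antiviral effectors, 2.066 for GBPs and 0.721 for MHC class I in WT. Calling the barcodes on thinned counts, also added later, gave KO over WT medians of -0.309, -0.491 and -0.424. Thinning, added later for the other gates, gave 15.70 and 33.02% of arterial, 16.24 and 34.69% of venous, 0.9321 and 2.192% of mesenchymal and 2.241 and 5.62% of mural barcodes. The cause of these shifts was not tested.

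The shares stayed lower in KO, and the interferon list medians kept their sign. Sizes were less stable: 74 alternative values moved past a fixed tolerance and 54 did not. Other values changed direction in the matched comparison: the capillary medians were -0.18 in KO and -0.11 in WT. In WT Vcam1 was at 0.64 there, Hbb-bs at 0.15 and Cxcl10 at 3.97. Depth differs: the interferon-responding barcodes hold 13051737 UMIs in KO and 3585212 in WT, and genes under 20 CPM were not compared. Intervals cover counting error and say nothing of mice or libraries, so a genotype difference and a library difference cannot be told apart.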
